A study of Mus musculus with 26 samples.

Results

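Mature CD8 single positive (CD8SP) thymocytes of the OT-1 line were compared with those of the F5 line by RNA-seq. Libraries were chosen by label alone, as the 3 OT-1 and 3 F5 libraries of the mature CD8SP gate, which make up 6 of the 26 libraries of the series. Each library is a biological replicate of its line according to the labels. All genes with a normalized count of at least 10 in at least 2 of the 26 libraries were tested, which left 16372 of 46517 gene symbols. Within the 6 libraries themselves 14569 symbols met the same minimum.

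The study followed CD8 lineage thymocytes of 3 T cell receptor (TCR) transgenic lines, TG6, F5 and OT-1, through early positive selection, late positive selection and maturity. The F5 mice were F5tg Rag1KO and the OT-1 mice OT-1tg Rag2KO, both on a C57/BL6 background, and thymocytes of both lines were sorted as CD4-CD8+CXCR4-CCR7+. The third line, TG6tg H2b/d, was made on a cross of C57/BL6 with B6.C-H2d/bByJ and is used below only for values set beside those of the other lines. No ages are given in the labels. The TG6 genotype in the labels names no deleted Rag gene, so endogenous receptor genes can rearrange there. Between OT-1 and F5 the receptor, the site of the transgene and the deleted Rag gene change together, so their parts in any difference cannot be told apart.

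CD8SP thymocytes are the last stage of CD8 T cell development in the thymus. Before it, CD4+CD8+ double positive (DP) cells whose receptor binds self-peptide on MHC class I receive survival signals, lose CD4, and acquire the receptors that let them leave for the blood. The OT-1 receptor recognizes an ovalbumin peptide on H-2Kb and the F5 receptor an influenza nucleoprotein peptide on H-2Db, and the lines are used as models of stronger and weaker recognition of self during selection. CD5 and the Nr4a1 product are commonly read as gauges of that recognition.

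The deleted recombinase genes were examined first. Rag1, deleted in F5, had 704, 2698 and 1896 normalized counts in F5 replicates 1, 2 and 3 and 233, 203 and 545 in OT-1 replicates 1, 2 and 3. Rag2, deleted in OT-1, had 10.9, 8.64 and 35.9 in OT-1 and 32.2, 269 and 162 in F5, in the same order of replicates as for every gene below. Rag1 had its higher counts in the line that carries its deletion, and Rag2 its lower counts in the line that carries its own. Counts per gene do not show which exons the reads came from, so these values do not check the alleles. The Rag1 difference did not pass the test (log2 fold change -2.37, SE 0.88, adjusted p = 0.0551). Rag2 passed narrowly, with overlapping libraries (log2 fold change -2.81, SE 1.00, adjusted p = 0.046), and lost the call without F5 replicate 2 (0.154), F5 replicate 3 (0.144), OT-1 replicate 1 (0.123) or OT-1 replicate 2 (0.147), where the value in brackets is the adjusted p.

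The receptor segments separated the lines. Trbv12-1, the most abundant beta variable segment in OT-1, had 16715, 16179.9 and 18322 counts in OT-1 and 26.3, 20.8 and 29.1 in F5. Trav14d-1 and Trav14n-1 hold identical values, 8713, 9448 and 7989.6 in OT-1 and 38.4, 37.8 and 80.3 in F5, so the reads of these near-identical alpha segments cannot be assigned to either. In F5 the leading alpha segment was Trav6-1, with 829, 1230.4 and 1392 counts against 0 to 1.04 in OT-1. Trbv16 was the leading beta segment of F5 with 283, 575 and 582 counts, and it is listed at 0 in every OT-1 library. All these segments lay far apart between the lines in all 6 libraries.

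The constant regions differed as well. Trac, the alpha constant region, had 37946, 41350.4 and 34864 counts in OT-1 and 4529, 5489 and 5856 in F5 (log2 fold change 2.85, SE 0.14, adjusted p = 3.92e-12). Trbc2 had 49355, 46489.5 and 51139 in OT-1 and 12158, 13567 and 11749 in F5 (log2 fold change 1.97, SE 0.09, adjusted p = 2.66e-12). Trbc1 went the other way, with 14177, 13522 and 14263 in OT-1 and 20457, 21288 and 21627 in F5 (log2 fold change -0.59, SE 0.09, adjusted p = 6.25e-05). None of these 3 overlapped between the lines.

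The sorting markers placed both lines in the same gate with small differences. Cd8a, the coreceptor alpha chain, had 18709.7, 20413 and 20657 counts in OT-1 and 24422, 26304 and 29840.2 in F5 (log2 fold change -0.43, SE 0.12, adjusted p = 0.0146), and it lost the call without F5 replicate 3 (0.087) or OT-1 replicate 1 (0.0612). Cd8b1, the beta chain, had 10426, 11731 and 10208 in OT-1 and 14746, 16607 and 17906 in F5 (log2 fold change -0.60, SE 0.15, adjusted p = 0.00494). Both coreceptor chains were lower in every OT-1 library than in any F5 library. Cd4 (-0.95, adjusted p = 0.173), Cxcr4 (-0.31, adjusted p = 0.645) and Ccr7 (0.66, adjusted p = 0.173), given as log2 fold changes, overlapped between the lines and did not pass.

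Across the genes tested, 3821 of 16372 (23.3%) differed between the lines at a Benjamini-Hochberg adjusted p below 0.05 by limma, 2174 (13.3%) higher and 1647 (10.1%) lower in OT-1. Fold changes here are OT-1 over F5 on the scale of log2(normalized count + 1), which understates the change of low genes. Of the calls, 1314 reached 2-fold, and at 8-fold or more 157 were higher against 40 lower. The direction of small changes depends on the scaling. Scaling all libraries to an equal total called 1365 genes higher and 2600 lower, and quantile normalization 1625 higher and 2005 lower, because these scalings moved the median of all genes from 0.0075 to -0.127 and -0.0401 on the log2 scale. The 6 libraries held an estimated 16.7 to 18.2 M reads each, and the correlation of log2 values was 0.972 to 0.978 within OT-1, 0.961 to 0.972 within F5 and 0.942 to 0.954 between the lines. The count of calls was 1482 when only the 3 mature CD8SP groups were fitted and 2281 without F5 replicate 3, and 1800 genes were called whichever library was left out. The p-values rest on a spread pooled over the 9 groups of all 26 libraries, TG6 and the earlier stages included. Fitting only the 2 groups compared gave 2519 calls. The 6 libraries compared come from mice of 1 strain background.

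**Figure D1:**
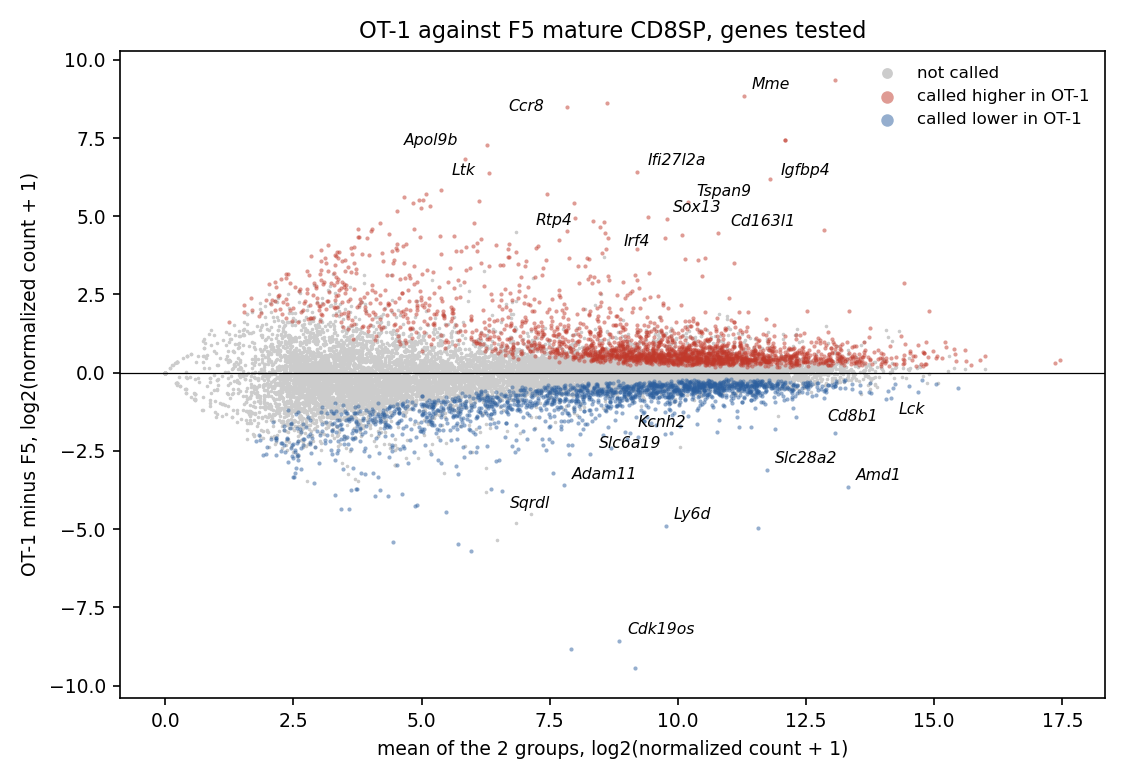
Log2 fold change of OT-1 over F5 (vertical axis) against the mean log2(normalized count + 1) of the 6 mature CD8SP libraries (horizontal axis) for the 16372 genes tested, with called genes coloured by direction and the leading genes named. The genes with the widest gaps, such as Mme at 8.85 and Amd1 at -3.65, stand well clear of the cloud around 0.

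Receptor segments and symbols that name only predicted or uncharacterized transcripts were left out of the ranking that follows. Among the other called genes with a mean of at least 100 in the higher line and no overlap, the widest gap belonged to Mme. It encodes the surface peptidase neprilysin (CD10). Mme had 4641, 5062 and 5192 normalized counts in OT-1 and 15.9, 7.33 and 7.78 in F5 (log2 fold change 8.85, SE 0.50, adjusted p = 5.10e-11). Igfbp4, a secreted binding protein of insulin-like growth factors, had 7111, 7199 and 6779 in OT-1 and 108, 91.4 and 89.5 in F5 (log2 fold change 6.18, SE 0.38, adjusted p = 2.90e-10). Tspan9, a tetraspanin, had 2383, 2507 and 2006 in OT-1 and 71.5, 30.2 and 62.8 in F5 (log2 fold change 5.45, SE 0.35, adjusted p = 4.88e-10). In these 3 genes the lowest OT-1 library exceeded the highest F5 library many times over. Ccr8, a chemokine receptor, had 494, 413 and 455 counts in OT-1 and was at or near 0 in F5, with 0, 0 and 1.0. Apol9b, of the apolipoprotein L family, had 150.2, 155 and 157 in OT-1 and is listed at 0 in every F5 library. Ltk, a receptor tyrosine kinase, had 178, 148 and 142 in OT-1 and 2.13, 0 and 1.06 in F5. No fold is given for these 3 because F5 sits at or under 3 counts.

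Further genes of this set were Plch1, a phospholipase C, with 442, 489.9 and 542 in OT-1 and 8.72, 24.3 and 5.27 in F5, and Crmp1, a cytosolic phosphoprotein best known from neurons, with 162, 152.2 and 86.9 in OT-1 and 8.57, 1.55 and 0 in F5. Rps6-ps4, a processed copy of a ribosomal protein gene, had 45.3, 1288 and 1020.0 in OT-1 and is listed at 0 in F5. The spread within OT-1 was wide for Rps6-ps4, and reads of the parent gene may be counted there, so its value is uncertain. Sox13, Ifi27l2a and Rtp4 complete the 12 and are described with their groups.

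In the other direction the gene with the most counts was Amd1, the S-adenosylmethionine decarboxylase of polyamine synthesis, with 1486, 1509.5 and 1498 counts in OT-1 and 21080.2, 19010.5 and 16462 in F5 (log2 fold change -3.65, SE 0.18, adjusted p = 3.92e-12). Its copy Amd2 had 27.8, 31.3 and 50.5 in OT-1 and 435, 298 and 288 in F5 (log2 fold change -3.21, SE 0.82, adjusted p = 0.00722), and reads of the pair may be divided between them by the counting. Slc28a2, a nucleoside transporter, had 666, 795 and 679 in OT-1 and 6679, 5963 and 5668 in F5 (log2 fold change -3.10, SE 0.29, adjusted p = 1.40e-07). All 3 were lower in every OT-1 library without overlap. Ly6d, a GPI-anchored surface protein, had 50.4, 34.4 and 77.8 in OT-1 and 963, 2596 and 1481 in F5 (log2 fold change -4.89, SE 0.68, adjusted p = 2.52e-05). Cdk19os, an antisense transcript beside Cdk19, was near 0 in OT-1 with 2.77, 0.937 and 0.907, against 703, 1120.1 and 954 in F5. Where counting ignores strand, reads of an antisense transcript and its partner cannot be told apart.

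The remaining lower genes of this set had log2 fold changes of -3.80 for Sqrdl, a mitochondrial sulfide oxidase, -3.70 for Pla2g4b, a phospholipase A2, -3.60 for Adam11, a metalloprotease relative, -2.80 for Jmjd7, -2.61 for Slc6a19, a transporter of neutral amino acids, -2.53 for Klhl4 and -2.52 for Hoxa7, a homeobox factor. Jmjd7 and Pla2g4b are neighbouring genes that share a readthrough transcript, so their values are not separate measurements.

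Interferon-stimulated genes were higher in OT-1 at most members. Type I interferon acts through its receptor and a factor complex that includes Stat2 and Irf9 to induce a large set of antiviral genes, and developing thymocytes meet it in the thymic medulla late in maturation. Of 55 listed members, all tested, 48 were higher in OT-1 (87.3%, against 13.3% of all genes), 0 were lower and 7 did not pass, with a median log2 fold change of 1.51. The 7 were Stat2, Oas1g, Gbp4, Gbp6, Gbp7, Ly6e and Sp100. Under the other settings run, 33 to 49 members were higher and 0 or 1 was lower.

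The strongest member was Ifi27l2a, a small mitochondrial protein gene, with 1295, 1341 and 856 counts in OT-1 and 11.1, 15.1 and 11 in F5 (log2 fold change 6.42, SE 0.28, adjusted p = 1.06e-12). Rtp4, a receptor chaperone, had 676, 708 and 510.0 in OT-1 and 16.2, 19.8 and 28.1 in F5 (log2 fold change 4.84, SE 0.31, adjusted p = 4.34e-10). Oas3, which makes the 2'-5' oligoadenylates that activate RNase L, had 2596, 2609 and 2269 in OT-1 and 195, 203 and 217 in F5 (log2 fold change 3.59, SE 0.22, adjusted p = 1.60e-10). In none of these did the lines overlap, and the 3 libraries of each line lay close together. Dhx58, a cytosolic sensor of viral RNA, had 664, 609 and 433 in OT-1 and 49.8, 42.6 and 41.1 in F5 (log2 fold change 3.63, SE 0.24, adjusted p = 6.76e-10). Ifi27l2a and the Oas genes have close paralogs, so their reads may be divided among copies.

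Transducers of the pathway varied. Irf7, the factor that amplifies interferon responses, and Irf9, named here after their values were seen, had log2 fold changes of 2.23 (adjusted p = 7.35e-08) and 1.74 (adjusted p = 1.51e-06). Stat2 had 794, 839 and 810.0 counts in OT-1 and 988, 1031 and 1108 in F5 and did not pass (log2 fold change -0.35, SE 0.14, adjusted p = 0.0699). Eif2ak2, the kinase that halts translation upon double-stranded RNA, had 885, 902 and 629.9 in OT-1 and 347, 348 and 349 in F5 (log2 fold change 1.19, SE 0.16, adjusted p = 2.52e-05).

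Ifit1, Isg15, Oas2 and Mx1 are standard readouts of this response and were also chosen after their values were seen. Ifit1, which binds viral RNA caps, had 459.7, 444 and 415 counts in OT-1 and 13.1, 22.7 and 19.1 in F5 (log2 fold change 4.54, SE 0.34, adjusted p = 5.69e-09). Isg15, a ubiquitin-like modifier, had 549, 486 and 399.9 in OT-1 and 47.5, 69 and 25.1 in F5 (log2 fold change 3.42, SE 0.30, adjusted p = 4.83e-08). Oas2 had a log2 fold change of 4.83 and Mx1, a dynamin-like antiviral GTPase, of 3.90. Each of the 4 was higher in every OT-1 library than in any F5 library. TG6 mature CD8SP libraries held 1224 to 1664 counts of Ifi27l2a and 634 to 1609 of Ifit1. For Ifi27l2a the TG6 libraries overlapped those of OT-1, and for Ifit1 they lay above them.

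**Figure D2:**
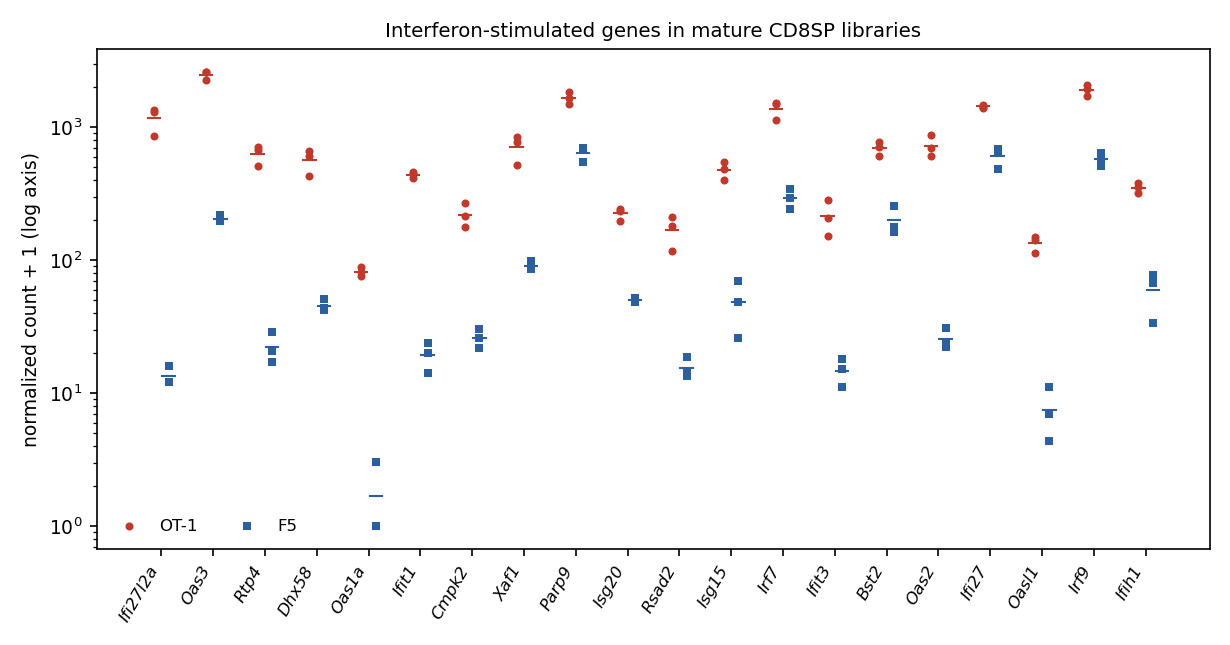
Normalized count + 1 (log axis) in each of the 6 mature CD8SP libraries for 20 of the called interferon-stimulated genes, taken by smallest adjusted p among those reported here, with points for libraries and bars for the arithmetic mean of each line. OT-1 points lie above the F5 points for every gene drawn, for example 856 to 1341 against 11 to 15.1 counts for Ifi27l2a.

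The promoters of this group show the sequence its factors are known to read. The interferon-stimulated response element has the core GAAANNGAAA, which was searched on both strands in the 300 bases from 250 before to 50 after each start site (RefSeq, GRCm38.p6), a search added after the values were seen. It occurred in 20 of the 39 members with a promoter entry (51.3%), in 17 of the 35 members called higher (48.6%), in 3.73% of the 10390 tested genes with an entry and in 3.44% of all 32851 promoters. Ifi27l2a, Rtp4 and Dhx58 had no entry. Below are the promoters of Oas3 (chr5:120777610-120777909, minus strand), Oas1a (chr5:120907476-120907775, minus strand) and Ifit1 (chr19:34640639-34640938, plus strand), shown because they carry the core close to the start site, with matches in capitals. In Oas1a 2 matches overlap in a single run of capitals.
Oas3: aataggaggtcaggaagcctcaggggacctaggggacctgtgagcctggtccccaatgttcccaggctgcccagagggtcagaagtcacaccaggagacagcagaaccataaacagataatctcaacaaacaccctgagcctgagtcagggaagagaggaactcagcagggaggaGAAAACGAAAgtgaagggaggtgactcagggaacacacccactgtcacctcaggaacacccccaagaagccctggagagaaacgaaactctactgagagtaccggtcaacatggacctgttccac
Oas1a: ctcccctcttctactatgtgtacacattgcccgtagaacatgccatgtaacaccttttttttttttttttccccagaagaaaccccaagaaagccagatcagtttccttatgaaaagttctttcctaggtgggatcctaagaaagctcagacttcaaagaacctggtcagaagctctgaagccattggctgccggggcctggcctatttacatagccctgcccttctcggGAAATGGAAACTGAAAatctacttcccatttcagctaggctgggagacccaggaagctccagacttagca
Ifit1: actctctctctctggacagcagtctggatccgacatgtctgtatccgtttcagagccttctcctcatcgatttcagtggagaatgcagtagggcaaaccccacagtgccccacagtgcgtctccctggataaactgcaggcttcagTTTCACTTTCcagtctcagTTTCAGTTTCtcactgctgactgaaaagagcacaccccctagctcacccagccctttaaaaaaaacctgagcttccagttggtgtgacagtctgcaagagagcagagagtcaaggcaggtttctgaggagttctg
The Oas3 match begins 75 bases before the start site, the Oas1a matches 20 and 14 bases before it, and the Ifit1 matches, on the other strand, 104 and 85 bases before it. Oas1a itself had 75.1, 87.7 and 80.8 counts in OT-1 and 2.02, 0 and 0 in F5, where it is at or near 0. Cmpk2, a mitochondrial nucleotide kinase with a log2 fold change of 3.07, had no match in its window. A match is a description of the letters and does not show binding.

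MHC class I genes and the peptide loading machinery, many of which interferons induce, were higher in OT-1 almost throughout. Of 26 members tested, 23 were higher (88.5%, against 13.3% of all genes), 1 was lower (3.85%, against 10.1%) and 2 did not pass, H2-M3 and Tapbpl, with a median log2 fold change of 0.73. Restricted to the 3 mature CD8SP groups, 15 were higher. H2-Q7, a non-classical class I gene that marks the latest thymic stage, had 2339, 2335 and 1616 counts in OT-1 and 173, 142 and 182 in F5 (log2 fold change 3.64, SE 0.28, adjusted p = 6.48e-09). Pdia3, a chaperone of the loading complex, had 8342, 8652 and 10926 in OT-1 and 4055, 4539 and 4236 in F5 (log2 fold change 1.11, SE 0.12, adjusted p = 6.87e-07). Erap1, which trims peptides for class I, had 3609, 3918 and 3433 in OT-1 and 2175, 2076 and 2324 in F5 (log2 fold change 0.74, SE 0.08, adjusted p = 8.39e-07). Each of these was separated between the lines. Near-identical H2-Q genes share reads, so H2-Q7 is uncertain as a single gene.

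Psme1, a proteasome activator subunit, had 4454, 4613 and 4069 counts in OT-1 and 2631, 2686 and 2616 in F5 (log2 fold change 0.73, SE 0.08, adjusted p = 1.70e-06). Among the classical molecules, named after their values were seen, H2-K1, which presents the OT-1 ligand, had a log2 fold change of 1.08 (SE 0.16, adjusted p = 5.22e-05) and H2-D1, which presents that of F5, 0.61 (SE 0.16, adjusted p = 0.00696). The H2-D1 call was lost without OT-1 replicate 2, at an adjusted p of 0.0501. The invariant light chain B2m had 16671, 18280.3 and 15272 in OT-1 and 8154, 9126 and 8404 in F5 (log2 fold change 0.97, SE 0.24, adjusted p = 0.00642). The exception was Tap2, a chain of the peptide transporter, with 3029, 3274 and 3137 in OT-1 and 3944, 4059.9 and 3829.9 in F5 (log2 fold change -0.33, SE 0.08, adjusted p = 0.00559). Its partner Tap1 was higher in OT-1, with 3983, 4043 and 3517 against 1606, 2348 and 2281 (log2 fold change 0.91, SE 0.15, adjusted p = 2.23e-04). The transporter chains therefore lay in opposite directions in all 6 libraries.

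Macrophage and monocyte markers moved with these groups. Their summed level was 1139 to 1410 counts in OT-1 and 199 to 313 in F5. Of 9 markers tested 4 were higher (13.3% of all genes were) and 0 lower (10.1% of all genes were). Most of the OT-1 sum was Ctss, a lysosomal protease of antigen-presenting cells, with 1113, 1080.5 and 886 in OT-1 and 108, 120.0 and 124 in F5. Csf1r, C1qa and C1qb were low but also called higher. Csf1r had 4.89, 14.9 and 17.3 counts in OT-1 and 0, 1.80 and 0.954 in F5. C1qa had 6.17, 12.5 and 4.04 in OT-1 (adjusted p = 0.00646) and C1qb 5.14, 10.4 and 5.05 (adjusted p = 0.0114). Both are listed at 0 in every F5 library. Adgre1, C1qc, Cd68, Lyz2 and Mpeg1 did not pass, and Fcgr1 was at most 3 in all 6 libraries. Dendritic cell markers summed to 948 to 1419 counts in OT-1 and 311 to 1109 in F5, with 0 of 9 called (23.3% of all genes were). The part of these cells in the interferon and MHC differences was not tested. In such bulk samples fewer cells of a type and less RNA per cell cannot be told apart.

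Genes of type 17 lymphocytes, which make interleukin-17 and depend on interleukin-23, were higher in OT-1. Of 15 members tested 10 were higher (66.7%, against 13.3%) and 1 was lower, with a median log2 fold change of 3.84. The higher members include Il17re, Il17rc, Il1r1 and Il23r, which the study named on libraries of this series. The direction of these members is not independent evidence. The median rested on low genes, with 1.40 at a mean of at least 50 (6 of 11 higher), 2.11 with no filter and 2.27 with 5 added before the log. Il17a, Il22, Ccr6 and Il1r2 were too low to test. Sox13, a factor of interleukin-17-producing gamma-delta T cells, had 1645, 1243 and 2209 counts in OT-1 and 39.9, 96.1 and 39.7 in F5 (log2 fold change 4.92, SE 0.42, adjusted p = 3.44e-08). Maf, a factor of the same program, had 665, 528 and 852 in OT-1 and 64.7, 31.9 and 46.4 in F5 (log2 fold change 3.84, SE 0.32, adjusted p = 2.74e-08). Cd163l1, a scavenger receptor known from gamma-delta T cells, had 3902, 3111 and 3071 in OT-1 and 136, 154 and 159 in F5 (log2 fold change 4.47, SE 0.37, adjusted p = 2.56e-08). The lines were far apart for each of the 3.

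Among the receptors of the group, Il17re, a chain of the interleukin-17C receptor, had 313, 258 and 269 counts in OT-1 and 12.9, 28.8 and 12 in F5 (log2 fold change 4.0, SE 0.37, adjusted p = 1.12e-07). Il17rc had 202, 133 and 39.5 in OT-1 and 4.16, 5.93 and 0.437 in F5 (log2 fold change 4.80, SE 0.83, adjusted p = 3.02e-04), with a wide spread within OT-1. Il1r1, the interleukin-1 receptor, had 47.2, 37.4 and 80.02 in OT-1 and was near 0 in F5. Il23r had 25.7, 20.9 and 19.2 in OT-1 and was likewise near 0 in F5, with 0, 1.89 and 0. Batf, an AP-1 factor needed for interleukin-17 production, had 281, 308 and 278 in OT-1 and 107, 123 and 98.3 in F5 (log2 fold change 1.40, SE 0.16, adjusted p = 3.12e-06).

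The lower member was Rora, a nuclear receptor gene of type 17 and innate lymphoid cells. Rora had 219, 247 and 256 counts in OT-1 and 894, 302 and 528 in F5 (log2 fold change -1.12, SE 0.38, adjusted p = 0.0394), a call lost without F5 replicate 1 (0.209), F5 replicate 3 (0.0987), OT-1 replicate 1 (0.104), OT-1 replicate 2 (0.0827) or OT-1 replicate 3 (0.0694).

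Gamma-delta T cell markers moved with this group in part. Their sum was 6777 to 8346 counts in OT-1 and 6884 to 7412 in F5, most of it Trdc, whose 5331, 5256 and 5408 counts in OT-1 against 7239, 7239.6 and 6759.7 in F5 did not pass (log2 fold change -0.41, SE 0.19, adjusted p = 0.132). Tcrg-C1, a gamma constant region, had 315, 163 and 404 in OT-1 and 21.2, 32.1 and 43.1 in F5 (log2 fold change 3.11, SE 0.61, adjusted p = 9.71e-04). Tcrg-C4 had 189, 96 and 237 in OT-1 and 5.05, 18.9 and 27.1 in F5 (log2 fold change 3.45, SE 0.72, adjusted p = 0.00162). With Sox13, which is also in the type 17 list, 3 of 5 markers were higher (13.3% of all genes were). Both lines lack a functional recombinase according to the labels. The part of such cells in the type 17 values was not tested.

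**Figure D3:**
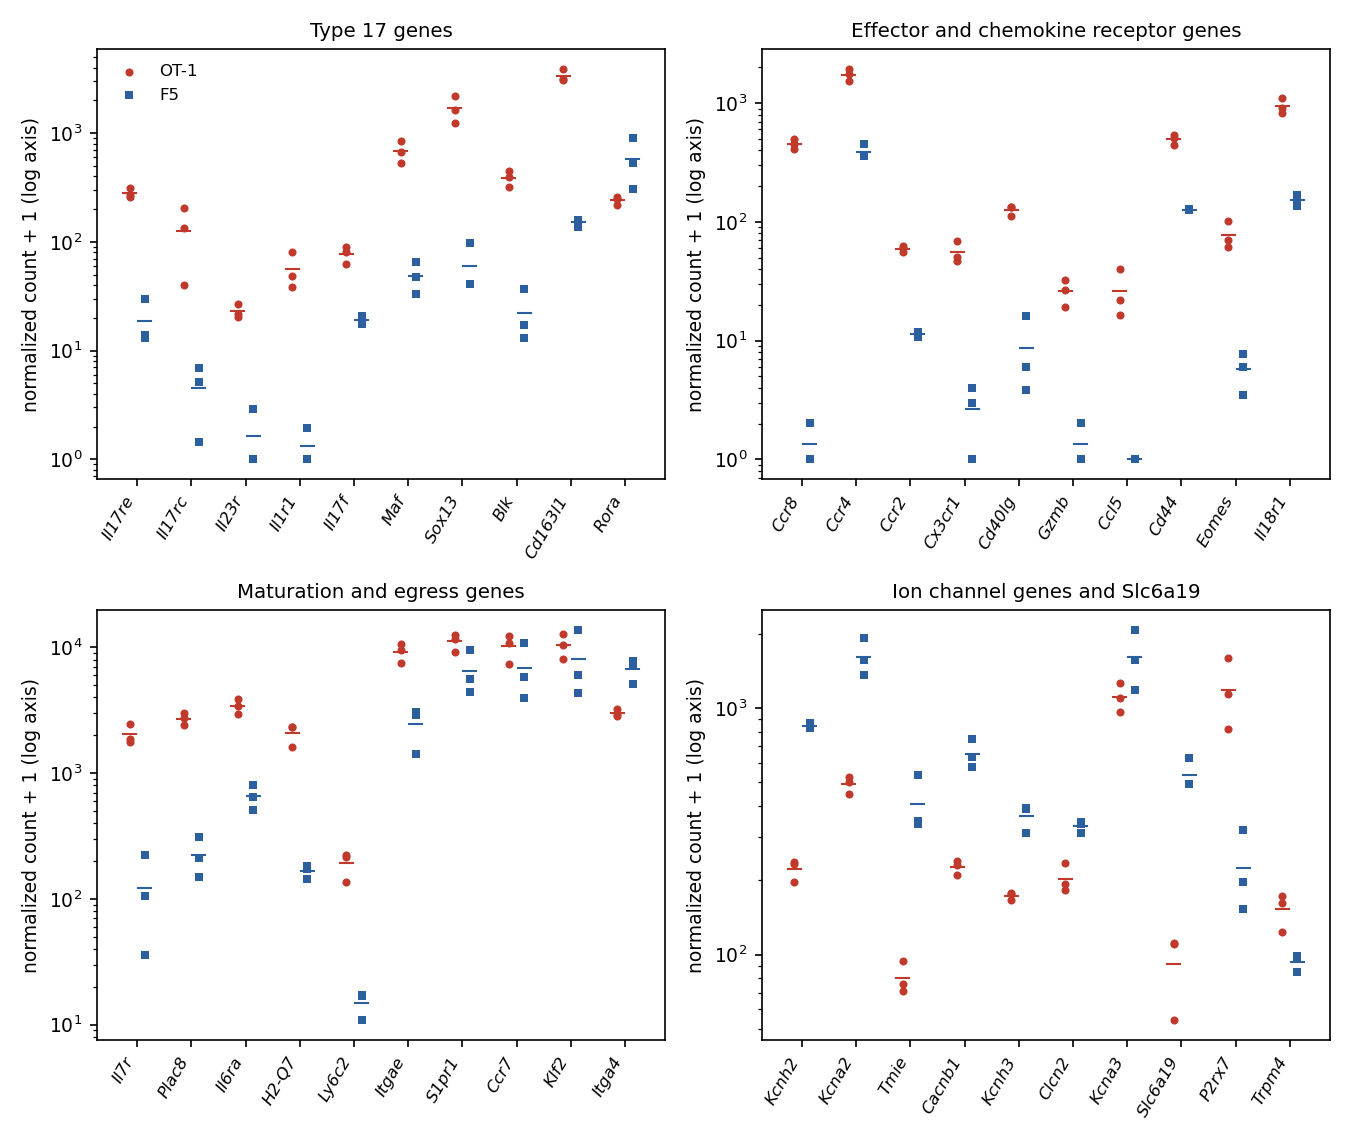
Normalized count + 1 (log axis) in each of the 6 mature CD8SP libraries for genes of several roles, with points for libraries and bars for the arithmetic mean of each line. Genes of effector and type 17 roles such as Sox13 (1243 to 2209 in OT-1, 39.7 to 96.1 in F5) and ion channel genes such as Kcnh2 (196 to 237 in OT-1, 828 to 866 in F5) lie apart in opposite directions.

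Effector and innate-like CD8 genes were higher in OT-1 at 12 of 25 members tested (48.0%, against 13.3% of all genes), with 0 lower (against 10.1%) and a median log2 fold change of 1.23. Cd44, an adhesion receptor of activated T cells, had 505, 535 and 445 counts in OT-1 and 124, 126 and 127 in F5 (log2 fold change 1.97, SE 0.21, adjusted p = 6.04e-07). Il18r1, the interleukin-18 receptor, had 1102, 901 and 821 in OT-1 and 168, 151 and 136 in F5 (log2 fold change 2.62, SE 0.33, adjusted p = 8.82e-06). Gzmb, a cytotoxic protease, had 25.7, 31.3 and 18.2 in OT-1 and was near 0 in F5. Ccl5, a chemokine of memory cells, had 39.1, 21.1 and 15.3 in OT-1 and is listed at 0 in F5. Levels of Gzmb and Ccl5 were low in both lines, although the lines did not overlap.

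The factors of effector differentiation varied, in values named after they were seen. Eomes had 100.9, 69 and 60.4 counts in OT-1 and 6.72, 2.48 and 4.95 in F5 (log2 fold change 3.81, SE 0.58, adjusted p = 7.85e-05). Tbx21, the gene of T-bet, had 8.23, 1.04 and 11.1 in OT-1 and 7.08, 16.1 and 10.03 in F5 and did not pass (log2 fold change -0.91, SE 0.67, adjusted p = 0.342). Prf1, perforin, had 431, 446 and 522 in OT-1 and 205, 209 and 244 in F5 (log2 fold change 1.08, SE 0.20, adjusted p = 6.67e-04). Ifng and Klrg1 were too low to test, and Zbtb16, the PLZF factor of innate-like T cells, did not exceed 2.09 counts in any library. The NK cell markers are a list of 6 genes that includes Eomes and Tbx21. They summed to 71.6 to 111 counts in OT-1 and 13.8 to 20.1 in F5. Of 2 tested, 1 was higher (13.3% of all genes were), and Eomes made up most of the OT-1 sum. Klrb1c reached 7.04 counts in OT-1 and 0.834 in F5, and Ncr1, Klra8 and Klre1 were at most 3 counts in all 6 libraries. The part of such cells in the effector values was not tested.

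The 8 effector genes that the study named were all higher in OT-1 (13.3% of all genes were), with a median log2 fold change of 4.46. The study chose them on libraries of this series, so their direction is not independent evidence. They are Ccr8, Plch1, Il17re, Il1r1, Il23r and Il17rc, already given, with Ccr4 and Cd40lg. Cd40lg, the ligand by which T cells license antigen-presenting cells, had 133, 112 and 132 counts in OT-1 and 15.2, 2.83 and 5.02 in F5 (log2 fold change 4.13, SE 0.48, adjusted p = 3.12e-06).

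Chemokine receptors were higher in OT-1 at 8 of 20 members tested (40%, against 13.3% of all genes), and 0 were lower, or 1 without OT-1 replicate 3. Ccr8 and Ccr4, among the 8, were named by the study on libraries of this series, so their direction is not independent evidence. At equal totals 7 were higher and 2 lower. Besides Ccr8 and Ccr4, Ccr2 had 54.5, 61.2 and 59.6 counts in OT-1 and 9.68, 10.6 and 10.9 in F5 (log2 fold change 2.38, SE 0.35, adjusted p = 5.50e-05). Cx3cr1, a receptor of effector cells and monocytes, had 68.1, 49.5 and 45.9 in OT-1 and was near 0 in F5, with 2.0, 0 and 2.97. Cxcr6, chosen after its values were seen, had 205, 182 and 265 in OT-1 and 52.6, 78.4 and 86.3 in F5 (log2 fold change 1.58, SE 0.45, adjusted p = 0.0151), and it lost its call without F5 replicate 1 or OT-1 replicate 3, with adjusted p from 0.0244 to 0.066 over the 6 fits. These receptors guide cells to inflamed tissue. Ccr9, the thymus and gut receptor, had 8952, 7718 and 11855 in OT-1 and 11196, 11099 and 10768 in F5 and did not pass (log2 fold change -0.24, SE 0.18, adjusted p = 0.352).

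Genes induced by TCR signals gave a mixed result. Of 25 members, 7 were higher in OT-1 (28.0%, against 13.3%) and 0 lower, with a median log2 fold change of 0.37, or 0.60 without F5 replicate 1, 0.23 without F5 replicate 2 and 0.22 at equal totals. The count was 4 without F5 replicate 2, 3 without F5 replicate 3, 3 without OT-1 replicate 1, 4 without OT-1 replicate 2 and 2 without OT-1 replicate 3. Irf4, whose level scales with signal strength in T cells, had 1558, 1974 and 1354 counts in OT-1 and 129, 54.8 and 71.2 in F5 (log2 fold change 4.32, SE 0.28, adjusted p = 4.49e-10). Tnfrsf9, the costimulatory receptor 4-1BB, had 64.8, 118 and 72.7 in OT-1 and 5.0, 9.93 and 7.31 in F5 (log2 fold change 3.35, SE 0.57, adjusted p = 2.64e-04). These 2 members were called whichever library was left out.

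Cd5, an inhibitor of TCR signals and the usual gauge of self-recognition, had 5892, 5750.0 and 6186 counts in OT-1 and 3515, 5022 and 3912 in F5 (log2 fold change 0.53, SE 0.18, adjusted p = 0.0405). Every OT-1 library exceeded every F5 library, but the call was lost without F5 replicate 1 (0.159), F5 replicate 3 (0.122), OT-1 replicate 1 (0.0857), OT-1 replicate 2 (0.0769) or OT-1 replicate 3 (0.101), and also at equal totals and after quantile normalization. Cd69, which holds cells in tissue, had 1082, 1273 and 2747 in OT-1 and 805, 539.9 and 1158 in F5, overlapping (log2 fold change 0.97, SE 0.32, adjusted p = 0.0311), and lost the call at equal totals and without F5 replicate 1 (0.0668), F5 replicate 2 (0.139) or OT-1 replicate 3 (0.206). Tagap had 2803, 2992 and 2437 in OT-1 and 1896, 597 and 918 in F5 (log2 fold change 1.43, SE 0.47, adjusted p = 0.0317), and the call was lost without F5 replicate 2 (0.134), F5 replicate 3 (0.0977), OT-1 replicate 1 (0.0776), OT-1 replicate 2 (0.0875) or OT-1 replicate 3 (0.0539). Pdcd1 and Nr4a2, the other 2 of the 7, had log2 fold changes of 1.19 (adjusted p = 0.0483) and 3.67 (adjusted p = 0.0377). The Nr4a2 call held only without F5 replicate 1 and that of Pdcd1 only without F5 replicate 2 or OT-1 replicate 2, with adjusted p from 0.00706 to 0.17 and from 0.0108 to 0.264 over the 6 fits.

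Of the immediate-early genes, Nr4a1, Junb, Jun and Egr1 did not separate the lines, whereas Nr4a2 had the call described above. Nr4a1, the gene of Nur77, had 5009.8, 3848 and 2518 counts in OT-1 and 6049, 2029 and 2777 in F5 (log2 fold change 0.17, SE 0.69, adjusted p = 0.887). Junb, an AP-1 subunit, had 4415, 3474 and 4357 in OT-1 and 9503, 2871 and 4407 in F5 (log2 fold change -0.28, SE 0.42, adjusted p = 0.672). Jun had 373, 360.2 and 462 in OT-1 and 1468, 119 and 242 in F5 (log2 fold change 0.18, SE 0.85, adjusted p = 0.903). In all 3 genes F5 replicate 1 held the highest value of the 6 libraries, well above the other F5 libraries, and the lines overlapped. Egr1, with 1316, 1246 and 1120.0 in OT-1 and 1025, 1103 and 1375 in F5, overlapped without that excess (log2 fold change 0.08, SE 0.34, adjusted p = 0.894). Junb, Jun and Egr1 were named after their values were seen.

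Attenuators of TCR signals, a list of 34 phosphatases, ubiquitin ligases, kinases and adaptors, were higher at 7 (20.6%, against 13.3% of all genes) and lower at 1 (2.94%, against 10.1%), with a median log2 fold change of 0.20. Without F5 replicate 2, 3 members were lower. The excess of higher calls depended on scaling, with 5 higher and 5 lower at equal totals (median 0.0522) and 6 higher and 5 lower after quantile normalization (median 0.0819). Sh2d2a, the adaptor TSAd, had 6585, 6904 and 5439.6 counts in OT-1 and 4450.1, 3319 and 4187 in F5 (log2 fold change 0.67, SE 0.11, adjusted p = 1.19e-04). Cblb, a ubiquitin ligase that restrains activation, had 1621, 1717 and 1427 in OT-1 and 1208, 969.6 and 1246 in F5 (log2 fold change 0.48, SE 0.10, adjusted p = 0.00206). Ubash3b, a phosphatase of Zap70, had 1032, 1034 and 845 in OT-1 and 597, 431 and 677 in F5 (log2 fold change 0.79, SE 0.18, adjusted p = 0.00375). Csk, the kinase that inhibits Lck, had a log2 fold change of 0.31 (8305 to 8637 against 6616 to 6917 counts, adjusted p = 0.00347), a call lost at equal totals and after quantile normalization. Dgkz, which removes diacylglycerol, went the other way with 9065, 9343 and 10028 in OT-1 and 14372, 15193 and 14136 in F5 (log2 fold change -0.62, SE 0.09, adjusted p = 5.86e-05). All 5 were separated between the lines.

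In the receptor-proximal machinery, 4 of 29 members were higher (13.8%) and 8 lower (27.6%, against 10.1% of all genes), with a median log2 fold change of -0.12, or -0.26 at equal totals and -0.25 after quantile normalization. The lower count was 4 without F5 replicate 3 or without OT-1 replicate 1 and 13 at equal totals. Lck, the kinase that starts the signal, had 13241, 12841 and 13692 counts in OT-1 and 22984, 21079 and 25147 in F5 (log2 fold change -0.80, SE 0.07, adjusted p = 1.20e-07). Themis, a regulator of positive selection, had 4569, 4594 and 5419 in OT-1 and 6901, 6700.5 and 7380.1 in F5 (log2 fold change -0.53, SE 0.08, adjusted p = 8.79e-05). Cd2, an adhesion receptor, had 6381, 6809 and 6679 in OT-1 and 4848, 4808 and 4706 in F5 (log2 fold change 0.47, SE 0.11, adjusted p = 0.00319). The lines did not overlap for any of these. Zap70 had 5422, 5380.4 and 5448 in OT-1 and 4319.7, 4031 and 4840.5 in F5 (log2 fold change 0.30, SE 0.09, adjusted p = 0.0158), a call lost under both other scalings and without F5 replicate 2 (0.0652).

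Transcription factors of lineage choice and thymocyte identity were higher at 4 (15.4%, against 13.3% of all genes) and lower at 5 (19.2%, against 10.1%) of 26 members, and the lower count was 2 without F5 replicate 1 or OT-1 replicate 1, 3 without OT-1 replicate 3 and 10 with equal totals. Tox2 had 904, 568 and 1117 counts in OT-1 and 97.6, 128 and 110.2 in F5 (log2 fold change 2.89, SE 0.42, adjusted p = 4.36e-05). Satb1, an organizer of thymocyte chromatin, had 19715, 22277 and 20649 in OT-1 and 34909.7, 29113 and 31303 in F5 (log2 fold change -0.60, SE 0.10, adjusted p = 1.81e-04). Tcf7, the gene of TCF-1, had 34467, 36314 and 42009.8 in OT-1 and 54338, 52113 and 52804 in F5 (log2 fold change -0.50, SE 0.11, adjusted p = 0.00211). Zbtb7b, the gene of the CD4 lineage factor ThPOK, had 10.5, 20.1 and 38.8 in OT-1 and 0, 1.21 and 0 in F5, at or near 0. Tox2 was higher and Satb1 and Tcf7 lower in every OT-1 library. The regulatory T cell factor Foxp3, named after its values were seen, was low and went the other way, with 3.01, 3.20 and 4.13 in OT-1 and 23.8, 11.6 and 18.5 in F5.

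Genes of preselection DP thymocytes, taken by the study from a separate microarray set, were lower in OT-1 at 7 of 11 members (63.6%, against 10.1%) and higher at 0, with a median log2 fold change of -1.04, or -0.64 without OT-1 replicate 3. Spo11, a meiotic endonuclease gene also transcribed in thymocytes, had 84.9, 116 and 103 counts in OT-1 and 265, 304 and 198 in F5 (log2 fold change -1.31, SE 0.16, adjusted p = 4.80e-06). Tdrd5 had 39.5, 18.1 and 57.1 in OT-1 and 250.8, 169.8 and 167 in F5 (log2 fold change -2.44, SE 0.44, adjusted p = 4.15e-04). Slc6a19, whose fold change stands above, had 109, 111 and 53 in OT-1 and 624, 489 and 490.3 in F5. All 3 were lower in every OT-1 library. Plxnd1, a semaphorin receptor that DP cells lose as they mature, had 1080.4, 1193 and 1289 in OT-1 and 941, 801 and 724 in F5 and did not pass (log2 fold change 0.54, SE 0.21, adjusted p = 0.0662).

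Early DP markers, a separate list of 8 genes that includes Rag1 and Rag2, summed to 3929 to 9333 counts in OT-1 and 7469 to 17841 in F5. Of the 8, 2 were lower (10.1% of all genes were) and 0 higher (13.3% of all genes were). F5 replicates 2 and 3 held the highest sums and OT-1 replicate 2 the lowest. The part of remaining DP cells in the preselection values was not tested.

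The ion channel list holds the 12 genes that drove the study's ion channel enrichment with Tmie, P2rx7 and Trpm4, not its full curated list. Its members were lower in OT-1 at 9 of 15 (60%, against 10.1% of all genes). They were higher at 2 (13.3%, as in all genes), or 1 without OT-1 replicate 1 or 2. The study chose this list on libraries of this series, so its direction is not independent evidence. Kcna2, a voltage-gated potassium channel, had 501, 449 and 523 counts in OT-1 and 1363, 1568 and 1917 in F5 (log2 fold change -1.71, SE 0.27, adjusted p = 1.17e-04). Cacnb1, a calcium channel beta subunit, had 209, 239.7 and 229 in OT-1 and 631, 574 and 747 in F5 (log2 fold change -1.52, SE 0.25, adjusted p = 2.09e-04). Tmie, a membrane protein of the inner ear transduction complex, had 74.6, 70.2 and 92.9 in OT-1 and 348, 338 and 532 in F5 (log2 fold change -2.32, SE 0.37, adjusted p = 1.38e-04). None of these overlapped.

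The exceptions were P2rx7, the ATP-gated channel, with 1139, 822 and 1596 counts in OT-1 and 152.2, 320.0 and 197 in F5 (log2 fold change 2.42, SE 0.35, adjusted p = 4.48e-05), and Trpm4, a calcium-activated cation channel, with 161, 171 and 122 in OT-1 and 95, 84.1 and 97.3 in F5 (log2 fold change 0.70, SE 0.20, adjusted p = 0.016). Trpm4 lost its call at equal totals and without OT-1 replicate 1 (0.0593) or OT-1 replicate 2 (0.0747). Scn2b, Cacnb3, Cacng4 and Cacna1e did not pass. In store-operated calcium entry, the usual route of T cell calcium signals, 4 of 20 members were higher (20.0%, against 13.3% of all genes) and 1 lower (5.0%, against 10.1%), or 0 without F5 replicate 3, 2 without F5 replicate 2 or OT-1 replicate 3, and 4 at equal totals. Ppp3ca, the catalytic subunit of calcineurin, had 1151, 1243 and 1033 in OT-1 and 449, 349.8 and 432 in F5 (log2 fold change 1.48, SE 0.20, adjusted p = 1.43e-05), without overlap.

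Genes that the study listed as high in peripheral CD8 T cells with low CD5, from other data sets, gave more lower than higher calls. In its microarray list 13 of 39 members tested were lower (33.3%, against 10.1% of all genes) and 3 higher (7.69%, against 13.3%), or 1 without F5 replicate 3 or any OT-1 library, with a median log2 fold change of -0.33. In its RNA-seq list 16 of 38 were lower (42.1%) and 3 higher (7.89%), or 1 without F5 replicate 1, with a median of -1.07. Dstyk, a dual-specificity kinase, had 103, 146 and 86.9 counts in OT-1 and 479, 320.2 and 499 in F5 (log2 fold change -1.95, SE 0.26, adjusted p = 1.45e-05). Nrg2, a neuregulin, had 13.5, 10.9 and 30.3 in OT-1 and 71.5, 121 and 82 in F5 (log2 fold change -2.36, SE 0.31, adjusted p = 1.46e-05). Grm6, a glutamate receptor, was near 0 in OT-1 with 1.61, 1.07 and 3.12 and had 73.2, 44.2 and 45.4 in F5. Against the trend, Frmd4b had 665, 655 and 617 in OT-1 and 221, 146 and 114 in F5 (log2 fold change 2.06, SE 0.24, adjusted p = 3.41e-06), and Pcsk1, a prohormone convertase, had 183, 137 and 185 in OT-1 and 53.6, 29.2 and 44 in F5 (log2 fold change 2.00, SE 0.49, adjusted p = 0.00538).

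Maturation and egress genes were higher in OT-1 at 18 of 32 members (56.3%, against 13.3% of all genes) and lower at 2 (6.25%, against 10.1%), or 1 without F5 replicate 1 or OT-1 replicate 3, with a median log2 fold change of 0.70. Il7r, the interleukin-7 receptor that sustains naive T cells, had 1868, 2471 and 1774 counts in OT-1 and 105, 35 and 222 in F5 (log2 fold change 4.41, SE 0.44, adjusted p = 3.28e-07). Plac8 had 2984, 2745 and 2412 in OT-1 and 149.5, 310.0 and 210.2 in F5 (log2 fold change 3.66, SE 0.34, adjusted p = 1.35e-07). Il6ra, the interleukin-6 receptor, had 3399, 3879.6 and 2974 in OT-1 and 802, 508 and 649 in F5 (log2 fold change 2.40, SE 0.27, adjusted p = 1.90e-06). Every OT-1 library was several times above every F5 library for each.

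The central egress pair did not pass. S1pr1, the receptor that draws cells into the blood, had 11710.5, 12612 and 9139 counts in OT-1 and 9453, 4457 and 5592 in F5 (log2 fold change 0.84, SE 0.43, adjusted p = 0.166). Klf2, which controls S1pr1, had 10465, 12695 and 8061 in OT-1 and 13763, 4344 and 5985 in F5 (log2 fold change 0.53, SE 0.50, adjusted p = 0.48). Both overlapped, with F5 replicate 1 the highest of the F5 libraries for each. Among integrins, Itgae (CD103) had 9508, 10722 and 7570.5 in OT-1 and 2894, 1421 and 3063 in F5 (log2 fold change 1.98, SE 0.44, adjusted p = 0.00274), and its partner Itgb7 had 12188, 13398 and 9894 in OT-1 and 6862, 5468 and 7258 in F5 (log2 fold change 0.86, SE 0.17, adjusted p = 0.00134). Itga4, which also pairs with Itgb7, was lower, with 2867, 2957 and 3219 in OT-1 and 7180.5, 5128 and 7788 in F5 (log2 fold change -1.13, SE 0.12, adjusted p = 1.06e-06). S1pr1 and Klf2 were named after their values were seen.

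Costimulatory and inhibitory receptors were higher at 8 of 25 (32.0%, against 13.3% of all genes) and lower at 1 (4.0%, against 10.1%), or 2 without F5 replicate 1 and 3 without F5 replicate 2. At equal totals 7 members were higher and 4 lower. Cd40lg, among the 8, was named by the study on libraries of this series. Btla, an inhibitory receptor, had 1559, 1715 and 1370.2 counts in OT-1 and 777, 403 and 692 in F5 (log2 fold change 1.36, SE 0.28, adjusted p = 0.0013). Cd101 had 177, 159 and 133 in OT-1 and 29.5, 30.6 and 29.6 in F5 (log2 fold change 2.34, SE 0.21, adjusted p = 9.17e-08). Cd27, a TNF receptor family member, was the lower gene, with 3837, 3483 and 4432 in OT-1 and 5160.4, 5723 and 6002 in F5 (log2 fold change -0.53, SE 0.12, adjusted p = 0.00407). All 3 were separated between the lines. In cytokine signalling 4 of 33 members were higher (12.1%, close to the 13.3% of all genes), or 8 without F5 replicate 1, and 2 lower (6.06%, against 10.1%), or 1 without F5 replicate 3 or OT-1 replicate 2 and 5 at equal totals. The lower members were Stat5b (-0.40, adjusted p = 0.00288) and Stat6 (-0.42, adjusted p = 0.0285). Stat6 lost its call without F5 replicate 3 (0.124) or OT-1 replicate 2 (0.11).

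In the NF-kB, NFAT and AP-1 list 8 of 31 members were higher (25.8%, against 13.3% of all genes) and 3 lower (9.68%, close to the 10.1%), and the lower count was 1 without each F5 library and without OT-1 replicate 1 or 2. Relb, of the non-canonical NF-kB pathway, had 466, 591 and 483 counts in OT-1 and 183, 170.1 and 205 in F5 (log2 fold change 1.46, SE 0.19, adjusted p = 1.04e-05). Nfkb1 had 3838, 3946 and 3779 in OT-1 and 2372, 2529.9 and 2769 in F5 (log2 fold change 0.59, SE 0.08, adjusted p = 1.30e-05). In the Bcl-2 family 3 of 15 members were higher (20.0%, against 13.3%) and 1 lower (6.67%, against 10.1%), or 2 without F5 replicate 1 or OT-1 replicate 3. Bmf, a pro-apoptotic member, had 294, 508 and 327 in OT-1 and 1743, 870.0 and 1823 in F5 (log2 fold change -1.94, SE 0.35, adjusted p = 4.43e-04). Bcl2, the survival factor, had 2368, 2324 and 2539 in OT-1 and 1254, 1432 and 2141 in F5 (log2 fold change 0.62, SE 0.18, adjusted p = 0.0146), a call lost at equal totals and without F5 replicate 1 (0.09). Relb and Nfkb1 were higher and Bmf lower in every OT-1 library.

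Of 16 Notch pathway genes 2 were higher (12.5%, close to the 13.3% of all genes), or 1 without F5 replicate 3 or OT-1 replicate 1, and 3 were lower (18.8%, against 10.1%). Dtx1, a Notch target, had 7118, 7769 and 5818 counts in OT-1 and 3848, 2883 and 3049 in F5 (log2 fold change 1.08, SE 0.20, adjusted p = 6.40e-04). Notch3 had 339, 307 and 534 in OT-1 and 679, 733 and 784 in F5 (log2 fold change -0.93, SE 0.23, adjusted p = 0.00571). The receptor was lower and the target higher in every OT-1 library. Glycan enzymes were higher at 8 of 24 (33.3%, against 13.3%) and lower at 0. St3gal5, which makes the ganglioside GM3, had 132, 128 and 103 in OT-1 and 37.5, 33.6 and 37 in F5 (log2 fold change 1.71, SE 0.32, adjusted p = 6.98e-04). Man2a1, an N-glycan mannosidase of the Golgi, had 1977, 1988 and 1894 in OT-1 and 1343, 926 and 1222 in F5 (log2 fold change 0.76, SE 0.14, adjusted p = 4.80e-04). In the Gimap family of 8 lymphocyte GTPases 2 were higher (25%, against 13.3%), or 1 without F5 replicate 1 or 3 or OT-1 replicate 3, and 1 lower (12.5%, against 10.1%). Gimap4 had 4360.1, 4869 and 4957 in OT-1 and 2027, 2763 and 1999 in F5 (log2 fold change 1.08, SE 0.17, adjusted p = 1.07e-04), and Gimap8 had 2927, 2978 and 3224 in OT-1 and 4632, 4561 and 5412 in F5 (log2 fold change -0.67, SE 0.15, adjusted p = 0.00291).

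Cell division genes were examined in separate lists. In DNA replication 32 of 56 members were higher (57.1%, against 13.3%) and 0 lower, with a median log2 fold change of 0.95 and all 56 values positive. The count was 16 without F5 replicate 1, 19 without F5 replicate 3, and 6 when only the 3 mature CD8SP groups were fitted. E2f1, which drives entry into S phase, had 1787, 1831 and 1453 counts in OT-1 and 485, 714 and 456 in F5 (log2 fold change 1.64, SE 0.26, adjusted p = 1.23e-04). Pole2, a subunit of DNA polymerase epsilon, had 694, 712 and 689.8 in OT-1 and 217, 379.9 and 247 in F5 (log2 fold change 1.35, SE 0.22, adjusted p = 1.53e-04). Mcm4, of the replicative helicase, had 5984, 6155 and 5953 in OT-1 and 2289, 3565 and 2323 in F5 (log2 fold change 1.18, SE 0.23, adjusted p = 8.89e-04). F5 replicate 2 was the highest F5 library in each and still lay under every OT-1 library.

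In G2/M and mitosis 12 of 76 members were higher (15.8%, near the 13.3% of all genes) and 1, Smc4, was lower. The median log2 fold change was 1.12, 75 of the 76 values were positive, and 57 members were higher in OT-1 without overlap (21.9% of all genes were), most of them short of the adjusted threshold. The count was 7 without F5 replicate 1 and 26 without F5 replicate 2. Kif23, a kinesin of cytokinesis, had 2494, 2711 and 2661 counts in OT-1 and 1037, 1689.7 and 1445 in F5 (log2 fold change 0.94, SE 0.18, adjusted p = 6.38e-04). Its partner Racgap1 had 5436, 5914 and 5185 in OT-1 and 1335, 2763 and 1929 in F5 (log2 fold change 1.52, SE 0.30, adjusted p = 9.98e-04). Cks1b, a cyclin-dependent kinase subunit, had 1339, 1264 and 1189 in OT-1 and 356, 684 and 397 in F5 (log2 fold change 1.46, SE 0.29, adjusted p = 0.00102). Cdc25b, a phosphatase that starts mitosis, had 3538, 3739 and 3011 in OT-1 and 1177, 2012 and 1145 in F5 (log2 fold change 1.29, SE 0.27, adjusted p = 0.00157). All 4 were separated between the lines. Smc4 lost its call whichever library was removed, at an adjusted p of 0.0516 to 0.0925.

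Promoters of this list carry elements known from the promoters of cell cycle genes. The CCAAT box was found in 41 of 60 members with a promoter entry (68.3%) and in 42.95% of tested genes with an entry. The cell cycle homology region, TTTGAA, was found in 41 of 60 (68.3%) against 14.5%, and the E2F-like letters TTTNNCGC in 11 of 60 (18.3%) against 9.48%. In DNA replication genes the E2F-like letters were found in 19 of 45 (42.2%). Over all 32851 promoters the shares were 37.4%, 17.9% and 5.17%. Both strands were searched. Below are the promoters of the 3 called members with the smallest adjusted p, Kif23 (chr9:61946750-61947049), Racgap1 (chr15:99651607-99651906) and Cks1b (chr3:89418242-89418541), all on the minus strand of GRCm38.p6, with the matches in capitals.
Kif23: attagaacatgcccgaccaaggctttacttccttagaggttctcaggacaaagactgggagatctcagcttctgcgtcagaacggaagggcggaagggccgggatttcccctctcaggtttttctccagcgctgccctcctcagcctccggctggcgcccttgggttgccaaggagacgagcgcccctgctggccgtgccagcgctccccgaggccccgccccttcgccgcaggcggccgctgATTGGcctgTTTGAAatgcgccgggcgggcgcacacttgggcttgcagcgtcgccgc
Racgap1: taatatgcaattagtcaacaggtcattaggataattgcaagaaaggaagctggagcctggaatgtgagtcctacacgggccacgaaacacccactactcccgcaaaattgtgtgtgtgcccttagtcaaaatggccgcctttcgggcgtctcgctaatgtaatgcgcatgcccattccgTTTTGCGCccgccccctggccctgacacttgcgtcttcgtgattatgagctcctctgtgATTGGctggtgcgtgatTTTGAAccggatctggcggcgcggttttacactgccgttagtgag
Cks1b: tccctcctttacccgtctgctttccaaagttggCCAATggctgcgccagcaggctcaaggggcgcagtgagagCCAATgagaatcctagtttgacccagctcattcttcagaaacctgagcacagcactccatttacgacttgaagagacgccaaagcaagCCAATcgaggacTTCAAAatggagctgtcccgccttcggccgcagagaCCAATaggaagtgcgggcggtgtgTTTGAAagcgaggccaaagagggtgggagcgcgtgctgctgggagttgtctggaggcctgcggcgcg
In Kif23 a CCAAT box on the other strand begins 7 bases before the start site, a few bases ahead of the homology region. In Racgap1 the reversed CCAAT box begins 12 bases before it, and E2F-like letters 71 bases before it. Cks1b holds 4 CCAAT boxes and a homology region on each strand. Cdc25b, next by adjusted p and not shown, had 1 match, a CCAAT box, and neither of the other elements. Of the 10 members called higher with an entry, 7 held a CCAAT box, 6 the homology region and 2 the E2F-like letters.

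Lists of growth and protein synthesis genes held more higher than lower calls, with small fold changes. Cytosolic ribosomal proteins were higher at 57 of 83 members tested (68.7%, against 13.3% of all genes) and lower at 0, with a median log2 fold change of 0.34. This count depended on scaling, with 28 higher and 1 lower at equal totals and 19 higher and 2 lower after quantile normalization, and it was 36 without F5 replicate 3. Rpsa had 40822, 39986 and 38603 counts in OT-1 and 23022, 25509 and 24583 in F5 (log2 fold change 0.71, SE 0.09, adjusted p = 1.38e-05). Subunits of oxidative phosphorylation were higher at 40 of 77 (51.9%, against 13.3%) and lower at 0, with a median of 0.43, and the count was 25 without F5 replicate 1 and 21 without F5 replicate 3. Atp5e, of the ATP synthase, had 2015, 1966 and 1762 in OT-1 and 957, 1193 and 907 in F5 (log2 fold change 0.92, SE 0.13, adjusted p = 4.93e-05). Both genes were separated between the lines.

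The proteasome was higher at 20 of 32 (62.5%, against 13.3% of all genes for each list here), and at 11 without F5 replicate 1, 10 without F5 replicate 3, 12 without OT-1 replicate 2 and 11 at equal totals. Psmb2 had 1620.5, 1609 and 1536 counts in OT-1 and 879, 1237 and 929.7 in F5 (log2 fold change 0.66, SE 0.13, adjusted p = 0.00106). Aminoacyl-tRNA synthetases were higher at 12 of 20 (60%) and ribosome biogenesis factors at 21 of 51 (41.2%), the latter at 11 without F5 replicate 3. Aars, the alanyl-tRNA synthetase, had 2056, 1952 and 1978 in OT-1 and 1019, 1264 and 1128 in F5 (log2 fold change 0.82, SE 0.17, adjusted p = 0.00192). Translation initiation factors were higher at 19 of 53 (35.8%) and lower at 3 (5.66%, against 10.1%), with 9 higher without F5 replicate 3, 12 without OT-1 replicate 2 and 10 both at equal totals and after quantile normalization. Mitochondrial ribosomal proteins were higher at 25 of 76 (32.9%), and at 10 to 16 without any library but F5 replicate 2, and at 13 with equal totals. Fitting only the 3 mature CD8SP groups left 27 cytosolic ribosomal proteins, 9 oxidative phosphorylation subunits, 1 proteasome subunit, 3 aminoacyl-tRNA synthetases, 9 ribosome biogenesis factors, 2 initiation factors and 4 mitochondrial ribosomal proteins called higher.

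Glycolysis was higher at 9 of 25 (36.0%, against 13.3%) and lower at 2 (8.0%, close to the 10.1% of all genes), or 1 without F5 replicate 2 or 3 or OT-1 replicate 1 or 2. Pkm, pyruvate kinase, had 19116, 19390.0 and 19215 counts in OT-1 and 11571, 11379 and 11769 in F5 (log2 fold change 0.73, SE 0.09, adjusted p = 4.20e-06). The subunits of lactate dehydrogenase were opposed. Ldha had 14036, 14046 and 14267 in OT-1 and 7435, 9067 and 7262 in F5 (log2 fold change 0.84, SE 0.16, adjusted p = 7.60e-04), whereas Ldhb had 537, 495 and 554 in OT-1 and 1186, 1693 and 1222 in F5 (log2 fold change -1.35, SE 0.16, adjusted p = 4.07e-06). Sterol and fatty acid synthesis, with 2 of 33 higher (6.06%, or 0 without F5 replicate 1 or OT-1 replicate 2, 1 without OT-1 replicate 1 or 3, 4 without F5 replicate 2) and 1 lower (3.03%), had shares under those of all genes. Of 240 solute carriers 35 were higher (14.6%) and 30 lower (12.5%), close to the background, with 22 higher and 42 lower at equal totals and 27 higher and 37 lower after quantile normalization. The higher count was 21 without OT-1 replicate 1 and 22 without OT-1 replicate 2, and the lower count 18 without F5 replicate 3 and 19 without OT-1 replicate 2.

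**Figure D4:**
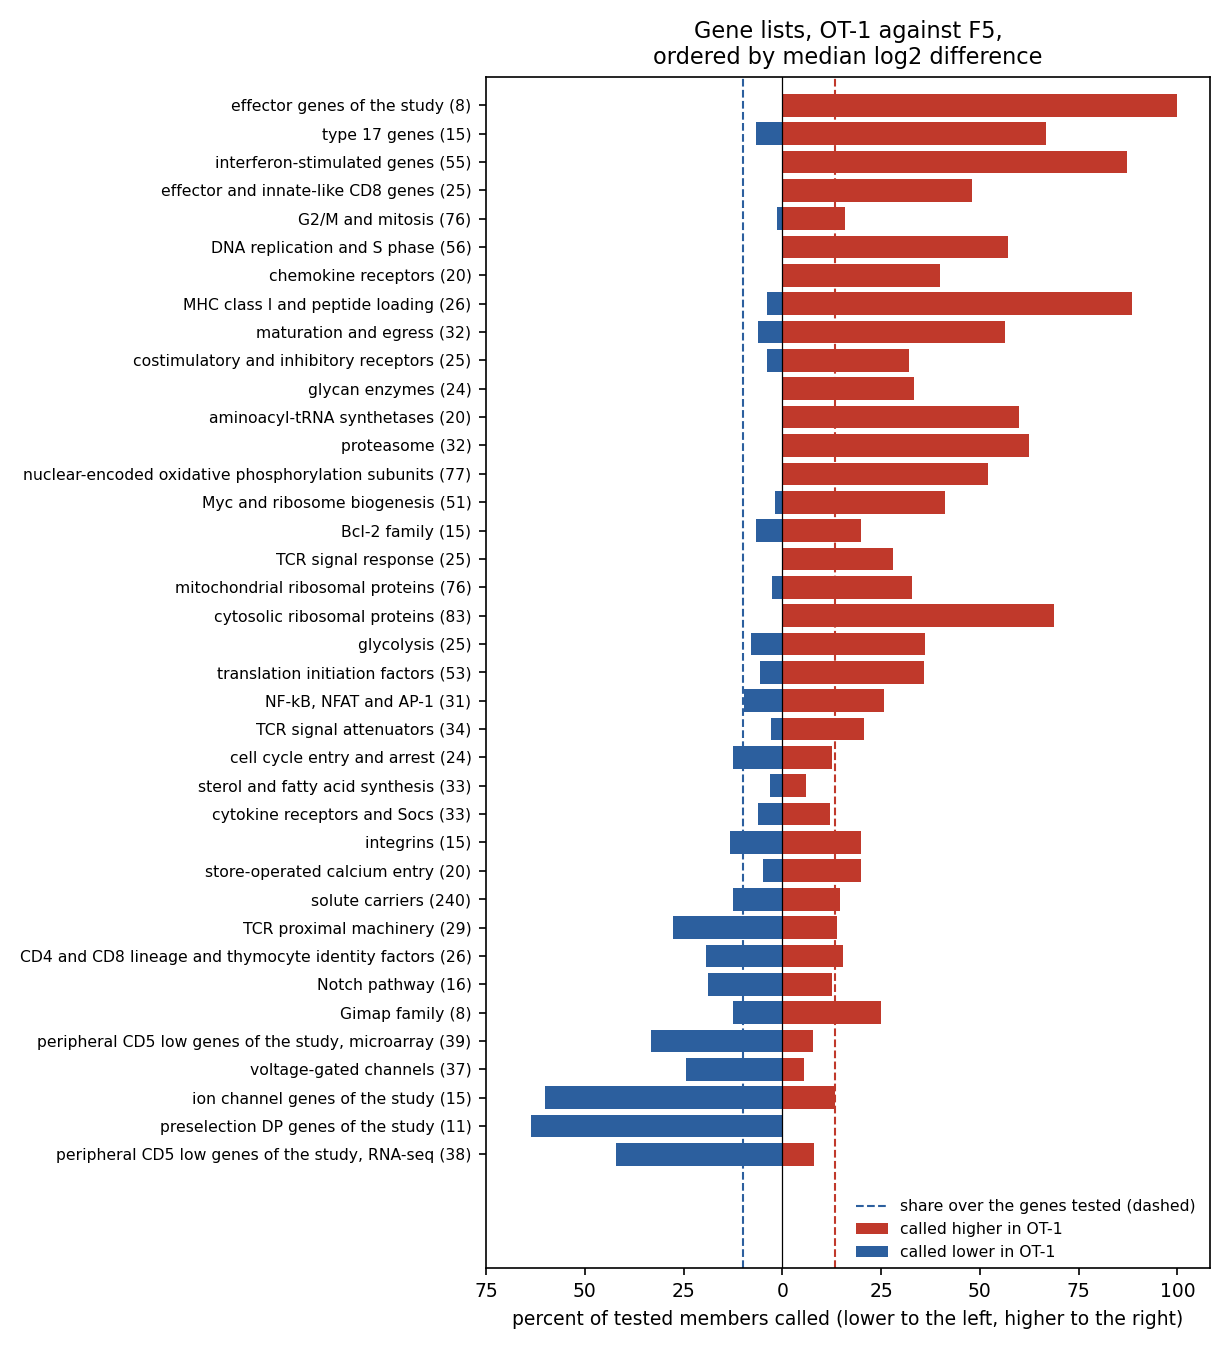
Percent of the tested members of each gene list called higher and called lower in OT-1 mature CD8SP libraries, with dashed lines at the 13.3% higher and 10.1% lower of all genes tested. The study's own 8 effector genes, chosen on libraries of this series, and the MHC class I and interferon lists reach the highest shares of higher calls (88.5% for MHC class I). The preselection DP and ion channel lists reach the highest shares of lower calls.

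Some differences clustered along chromosomes, an observation made after the values were seen. Windows of 5 Mb with at least 8 tested genes were compared by the share of genes called at 2-fold or more without overlap, 7.65% over the 15467 genes with a single position. On chromosome 2, 6 of 13 genes between 55000001 and 60000000 met this (46.2%), all higher in OT-1, among them Nr4a2, Acvr1, Dapl1 and Pkp4. On chromosome 17, 8 of 18 genes between 50000001 and 55000000 met it (44.4%), 2 higher and 6 lower, and the lower 6 were unnamed transcripts near Satb1. Some intervals with large shares, such as 3 of 8 genes at the start of chromosome 6 (37.5%) and 4 of 13 on chromosome 10 (30.8%), are not described further. The interval of chromosome 2 from 120000001 to 125000000, shown because it holds several genes named above, held 15 of 63 (23.8%), 6 higher and 9 lower, with Jmjd7, Pla2g4b, Slc28a2, Slc30a4 and Sqrdl among the lower and Pdia3 among the higher. Ltk and Tyro3, both higher, lie just before it. Gm14085, a predicted symbol near Slc28a2 in the interval, had 201, 201 and 154 counts in OT-1 and 5908, 5859 and 5709 in F5 (log2 fold change -4.98, SE 0.39, adjusted p = 8.30e-09). Slc30a4, a zinc transporter, had 328, 341 and 315 counts in OT-1 and 1061, 946 and 904 in F5 (log2 fold change -1.56, SE 0.12, adjusted p = 1.20e-08). Tyro3, a receptor tyrosine kinase, had 457, 468 and 479 in OT-1 and 44.2, 61.3 and 94.4 in F5 (log2 fold change 2.86, SE 0.41, adjusted p = 3.85e-05). Outside the windows above, Mme (63241537 to 63386030) and Plch1 (63696234 to 63899472) are neighbours on chromosome 3. Amd1 (40287458 to 40302186) and Cdk19os (40348508 to 40350103) are neighbours on chromosome 10. Mean counts in TG6 mature CD8SP libraries were 1.66 for Mme, 9.42 for Plch1, 1238 for Amd1 and 2.03 for Cdk19os. Whether any of these intervals differ in DNA between the lines, or whether neighbours differ separately, was not tested.

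The differences between mature cells were compared with those of the same lines at early and late positive selection. Of the 3821 genes called at maturity, 1237 were called in the same direction at the early stage, 2149 at the late stage and 1067 (27.9%) at both. Opposite calls were found for 21 genes at the early and 22 at the late stage. Among the 24 genes with the widest gaps 19 had calls of 1 direction at every stage. At the early stage Mme had a mean of 15456.5 counts in OT-1 and 0.915 in F5, for which no fold is given, and its log2 fold change was 9.64 at the late stage. That of Amd1 was -4.50 at the early and -4.58 at the late stage.

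The change of the difference between stages was tested directly, in the same limma model. It differed from the early stage for 269 genes (1.64% of those tested) and from the late stage for 138 (0.843%). Among interferon-stimulated genes 17 of 55 differed from the early stage and 0 from the late, and their median log2 fold change was 0.71 at the early stage, 2.09 at the late stage and 1.51 at maturity. In MHC class I and peptide loading 9 of 26 differed from the early and 1 from the late stage, with medians of 0.14, 0.62 and 0.73. Effector and innate-like genes differed at 7 of 25 and 6 of 25. Ifi27l2a, for example, had 2.91, 5.27 and 6.42. Cd44 had -0.19 and -0.43 before maturity and 1.97 at maturity, and Il18r1 -0.56, -1.50 and 2.62.

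Other genes had their widest gap before maturity. Itgae had log2 fold changes of 2.81 at the early, 7.10 at the late and 1.98 at the mature stage. Plac8 had 4.20, 6.39 and 3.66, and Gimap4 3.77, 1.39 and 1.08. Plxnd1 was lower in OT-1 at both earlier stages (-0.78 and -1.80) and had 0.54 at maturity. Notch3 had its widest gap at maturity, where it was lower (-0.93), and was higher at the early stage (0.77). Replication genes, with medians of 0.30, 0.85 and 0.95, had 0 of 56 members whose difference from either stage passed the test.

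**Figure D5:**
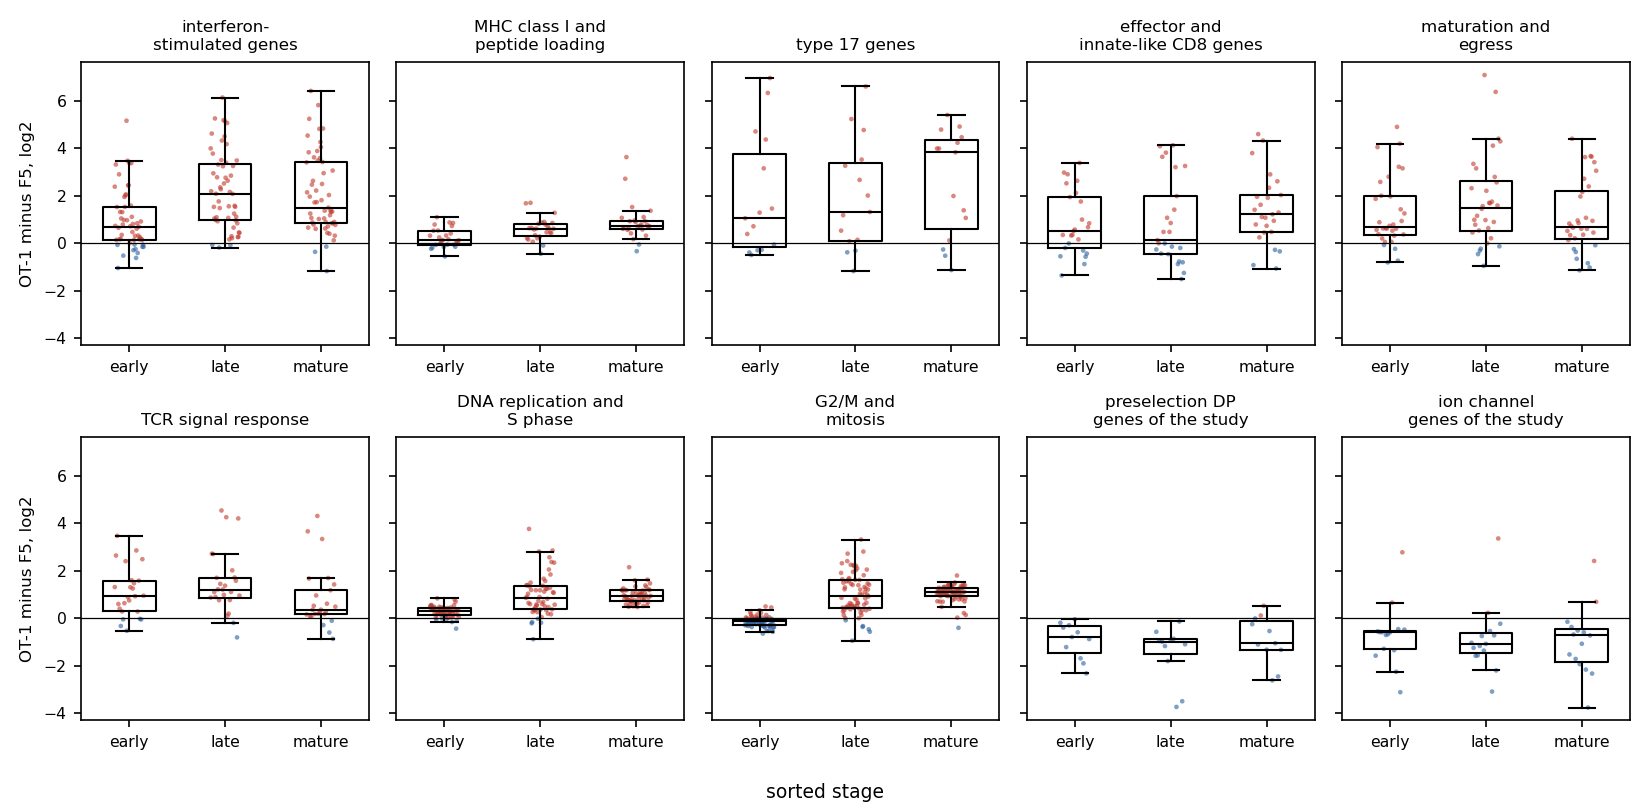
Log2 fold change of OT-1 over F5 for the members of selected gene lists in the early and late stages of positive selection and at maturity, with boxes for the median and quartiles and points for genes. The interferon list has its highest median, 2.09, at late positive selection, and the preselection DP list has a negative median at every stage.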

How the data were processed

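RNA was measured in 26 sorted thymocyte libraries, of which the 3 OT-1 and 3 F5 mature CD8SP libraries are compared here. Per the labels, reads were trimmed with Trimmomatic 0.32, aligned to mm10 with Bowtie2 2.3.2, quantified per gene with RSEM 1.2.31 and normalized by the median-of-ratios of DESeq2, and the gene annotation is not given in the sources used here. The signal values that the authors deposited are therefore normalized estimated counts, and 40.8% to 41.8% of those above 0 in the 6 libraries were whole multiples of 1 read within 0.001 reads, so no count test was run. 1 was added, log2 was taken, and limma 3.58.1 (R 4.3.3) fitted the means of 9 groups over the 26 libraries with a trended prior variance (17 residual degrees of freedom), with Benjamini-Hochberg adjustment over 16372 genes and calls at an adjusted p below 0.05. Simulated data were used to test the script. Depth was estimated from the value of 1 read at 16.2 to 18.3 M reads over the 26 libraries, and no interval was computed from it.

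Genes named were the 12 per direction with the largest fold change (called, no overlap, mean of at least 100 in the higher line, named protein or RNA genes other than receptor segments), up to 4 called members per direction of each list, members of lists of at most 15 genes, the sorting markers, Rag1, Rag2, Cd5, Nr4a1, Mme, genes the study names and leading receptor segments. Some genes under these rules are not reported here but stay in the counts of their lists. The comparison, the genes named and the gene lists were chosen with earlier results of these data known. Promoters are those of RefSeq. Replicates were kept as labelled, and no library was left out of the reported fit.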

Additional observations from a re-analysis of the deposited data

Results flagged for a closer look

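For 49 values of named genes, the OT-1 against F5 difference at maturity departed from the same difference at an earlier stage, in a test of the change itself (limma interaction contrast, adjusted p below 0.05). Values are the mature minus the earlier log2 fold change, and a positive value means that the mature difference lay further toward OT-1.

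Against early positive selection, the values for interferon and MHC class I genes were 3.51 for Ifi27l2a, 2.31 for Dhx58, 2.84 for H2-Q7, 0.56 for Erap1 and 0.68 for Psme1. Those for effector and type 17 genes were 2.16 for Cd44, 4.001 for Gzmb, 3.18 for Il18r1, 3.60 for Il17re, 5.18 for Il17rc, -2.49 for Cd163l1 and -2.42 for Rora. Of the genes with wide gaps, Apol9b had 5.94, Igfbp4 2.61, Crmp1 3.80, Tspan9 4.50 and Mme -4.27. TCR genes and regulators gave 1.90 for Irf4, 1.39 for Trac and -1.82 for Btla. The other values were -1.28 for Spo11, 1.32 for Plxnd1, -2.51 for Il6ra, -2.69 for Gimap4, -0.95 for Gimap3, 1.65 for Racgap1, 1.17 for Trpm4, -1.26 for Kcnh2, 1.14 for Itpr1, -1.70 for Notch3 and -4.08 for Grm6.

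Against late positive selection, the values toward OT-1 were 3.86 for Crmp1, 2.33 for Plxnd1, 1.92 for H2-Q7, 2.39 for Cd44, 3.25 for Gzmb, 4.12 for Il18r1, 2.81 for Il17re, 0.86 for Itga5, 1.88 for Kif23, 4.73 for Pcsk1 and 0.65 for Eif4e3. Those away from OT-1 were -2.78 for Tagap, -2.73 for Plac8, -1.72 for Il6ra, -5.12 for Itgae, -2.07 for Dtx1, -1.47 for Notch3 and -1.37 for Slc35g1. The values of Apol9b, Gzmb and Grm6 and that of Mme against the early stage rest on a group mean at or under 3 counts, so their size depends on the 1 added before the log and is no fold. Groups of 3 libraries were not searched for single outlying samples.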

How the results depend on the processing

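With 18 alternatives, no called named gene changed direction, and 389 of 3724 values lost their call. Of 208 named genes called, 164 were called whichever library was left out and 95 in every fit. The 3821 calls became 2519 with only the 2 groups fitted (935 lower) and 1482 with only the 3 mature CD8SP groups (937 higher, 545 lower). With libraries scaled to equal totals 1365 were higher and 2600 lower, and 15 named genes lost their call, as 14 did after quantile normalization, 30 with only the 2 groups, 61 with only the 3 mature groups and 103 with a replicate block in the 2-group fit. With only the 3 mature groups the members called higher also fell from 12 to 3 in G2/M and mitosis, from 9 to 3 in glycolysis, from 7 to 4 in TCR signal response and from 35 to 15 in solute carriers, and those called lower from 8 to 3 in the receptor-proximal machinery and from 16 to 10 in the RNA-seq CD5 low list. The replicate block in the 2-group fit left 12 MHC class I members, 15 replication members, 3 cytosolic ribosomal proteins and 0 proteasome subunits called higher. Leaving out a library gave 2281 to 4033 calls (1351 to 2320 higher, 930 to 1713 lower), lowest without F5 replicate 3, and 155 to 345 genes with a changed difference from the early stage and 84 to 185 from the late stage. Among genes without a call, the sign turned without a library for Ets2 (-0.13 to 0.11), Gimap7 (-0.55 to 0.011), Cacna1e (-0.34 to 0.11), Cxcr4 (-0.68 to 0.048) and Nr4a1 (-0.17 to 0.62). The causes were not tested. Same-numbered libraries correlated at 0.0685, -0.107 and 0.0679 in their deviations, and of the OT-1 libraries only replicate 1 correlated best with its own number. With 3 libraries per line, these values cannot decide whether same-numbered samples were handled together. A replicate block gave 3968 calls in the fit of all groups, and 743 (521 higher, 222 lower) in that of the 2 groups compared. The depth of the normalized values limits what can be said of genes near 0, whose log2 differences depend on the 1 added.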
